A study of Mus musculus with 8 samples.

Results

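Immediate early genes are transcribed within minutes of a growth factor signal, from transcription factors already present in the cell. In the ventricles of mouse embryos at embryonic day 15.5, 10 of them were compared between *Nrg1GOF* and WT hearts. They were taken by symbol from the 53465 gene identifiers of the deposited table and comprised the FOS family genes *Fos*, *Fosb* and *Fosl2*, the JUN family genes *Jun*, *Junb* and *Jund*, the zinc finger genes *Egr1* and *Egr3*, *Ier2* and *Myc*. All 10 matched 1 identifier each, and all 10 passed the filter on low counts. The choice of genes used no measured value of the table, although it was made with earlier results of these data known.

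*Nrg1GOF* embryos carried the genotype written Rosa26Nrg-1;Nkx5.5-Cre in the labels, which is named Nkx2.5-Cre in the title of the series. The Cre recombinase of this cardiac driver line switches on a neuregulin-1 transgene at the Rosa26 locus, in cardiac progenitors that express *Nkx2.5* and in their descendants. Control embryos were labelled WT, with no statement on whether they carried the driver or the transgene alone. Each group held 4 libraries, each from 1 ventricle sample, and the 8 libraries held 8038569 to 26785948 rounded counts. *Nrg1GOF* library 4 was the shallowest. WT libraries 1 and 2 stood apart from WT libraries 3 and 4 in some genes, with the hemoglobin gene *Hba-a2* at 2035 and 2065 CPM (counts relative to library size) against 772 and 549 CPM, and the fibroblast marker *Pdgfra* at 86.9 and 82.3 CPM against 55.4 and 57.4 CPM. No label used here explains these pairs, and calls on the 10 genes that depend on them are given with each pair. In such whole ventricle tissue, fewer cells of a type and less RNA per cell cannot be told apart.

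Neuregulin-1 binds ErbB receptors, which activate the ERK kinase cascade. ERK and its downstream kinases phosphorylate factors bound at immediate early promoters, among them the ETS-domain partners of SRF and the CRE-binding protein CREB. FOS and JUN proteins then pair through leucine zippers into AP-1, EGR proteins bind GC-rich sites, and MYC pairs with MAX. Most of these messages decay quickly, and in the embryonic heart *Egr1* and *Fos* respond to growth factors and to stretch.

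The sequences upstream of these genes are shown because the members are textbook targets of such factors. RefSeq promoters (build GRCm38.p6) were held for 6 of the 10 members, and 250 bases before each start site were searched on both strands. The lines give positions -130 to -1 of *Fos* (chr12:85473760-85473889, plus strand), *Fosb* (chr7:19310046-19310175, minus strand), *Fosl2* (chr5:32136342-32136471, plus strand), *Junb* (chr8:84978749-84978878, minus strand) and *Jun* (chr4:95052223-95052352, minus strand), each read 5′ to 3′ on the strand of the gene. Capitals mark the CRE core TGACG, the EGR site GCGNGGGCG, the TATA box TATAAA and, in *Jun*, the letters TGACATCA.
Fos: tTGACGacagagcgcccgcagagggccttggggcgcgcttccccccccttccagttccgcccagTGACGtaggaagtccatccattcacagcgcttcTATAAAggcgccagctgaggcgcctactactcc
Fosb: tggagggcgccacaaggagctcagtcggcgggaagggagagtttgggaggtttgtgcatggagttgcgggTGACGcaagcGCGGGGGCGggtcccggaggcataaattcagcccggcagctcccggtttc
Fosl2: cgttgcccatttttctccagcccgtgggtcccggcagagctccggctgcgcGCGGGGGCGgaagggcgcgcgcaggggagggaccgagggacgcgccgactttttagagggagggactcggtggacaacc
Junb: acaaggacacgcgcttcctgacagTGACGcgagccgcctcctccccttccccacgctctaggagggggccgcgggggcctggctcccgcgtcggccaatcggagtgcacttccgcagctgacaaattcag
Jun: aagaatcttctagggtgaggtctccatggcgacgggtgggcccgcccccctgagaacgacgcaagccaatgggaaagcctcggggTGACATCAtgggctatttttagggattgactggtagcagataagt

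The CRE core occurred in *Fos*, at -129 to -125 and at -66 to -62, in *Fosb* at -60 to -56 and in *Junb* at -106 to -102. It was present in 17.9% of the 27025 RefSeq promoters searched over the same 250 bases. The EGR site was found in *Fosb*, at -50 to -42, and in *Fosl2*, at -79 to -71, against 4.65% of all promoters. *Fos* also held a TATA box at -33 to -28, found in 13.0% of promoters. *Jun* held neither the CRE core nor the EGR site in this window and carried TGACATCA at -45 to -38, letters that were added to the search after the sequence was seen and occur in 3.02% of promoters. The longer palindrome TGACGTCA, which contains the core (1.62% of promoters), the AP-1 site TGANTCA (6.87%), the ETS site CCGGAA (12.2%), the E-box CACGTG (6.05%) and the CArG box bound by SRF (1.4%) were in none of the 6 within these 250 bases. Sites further upstream were not searched, so the absence of a CArG box here does not mean that a gene lacks one. *Egr1* was not among the 6 promoters. The RefSeq start of *Fosl2* lies 671 bases from the GENCODE start, and that of *Jund*, which held no searched motif and is not shown, 1210 bases. These are matches of letters only, and no binding was measured.

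Levels are given as CPM, counts scaled to the TMM-adjusted library size. *Nrg1* itself averaged 61.8 ± 1.90 CPM in *Nrg1GOF* against 4.03 ± 0.652 CPM in WT (SD, n = 4 each). Its log2 fold change was 3.94 (edgeR quasi-likelihood adjusted p = 8.26e-08), and the groups did not overlap, as their labels imply.

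Of the 10 immediate early genes, 7 were higher in *Nrg1GOF* hearts and none was lower. *Fos*, *Fosb*, *Egr1* and *Egr3* rose more than 2-fold on group means, *Junb*, *Ier2* and *Fosl2* by less, and *Jun*, *Jund* and *Myc* did not pass the test. A gene is described as called at an adjusted p under 0.05 over the 15580 genes tested. Among all of these, 28.7% were called, 15.9% higher and 12.8% lower, so 7 of 10 compares with 15.9% of genes called higher. In the same 7 genes every *Nrg1GOF* library lay above every WT library, a pattern shown by 16.6% of tested genes. The log2 fold change was above 0 in all 10, with a median of 0.67, and in 48.3% of tested genes, with a median of -0.01. Counts and medians over 10 chosen genes are a description.

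**Figure D1:**
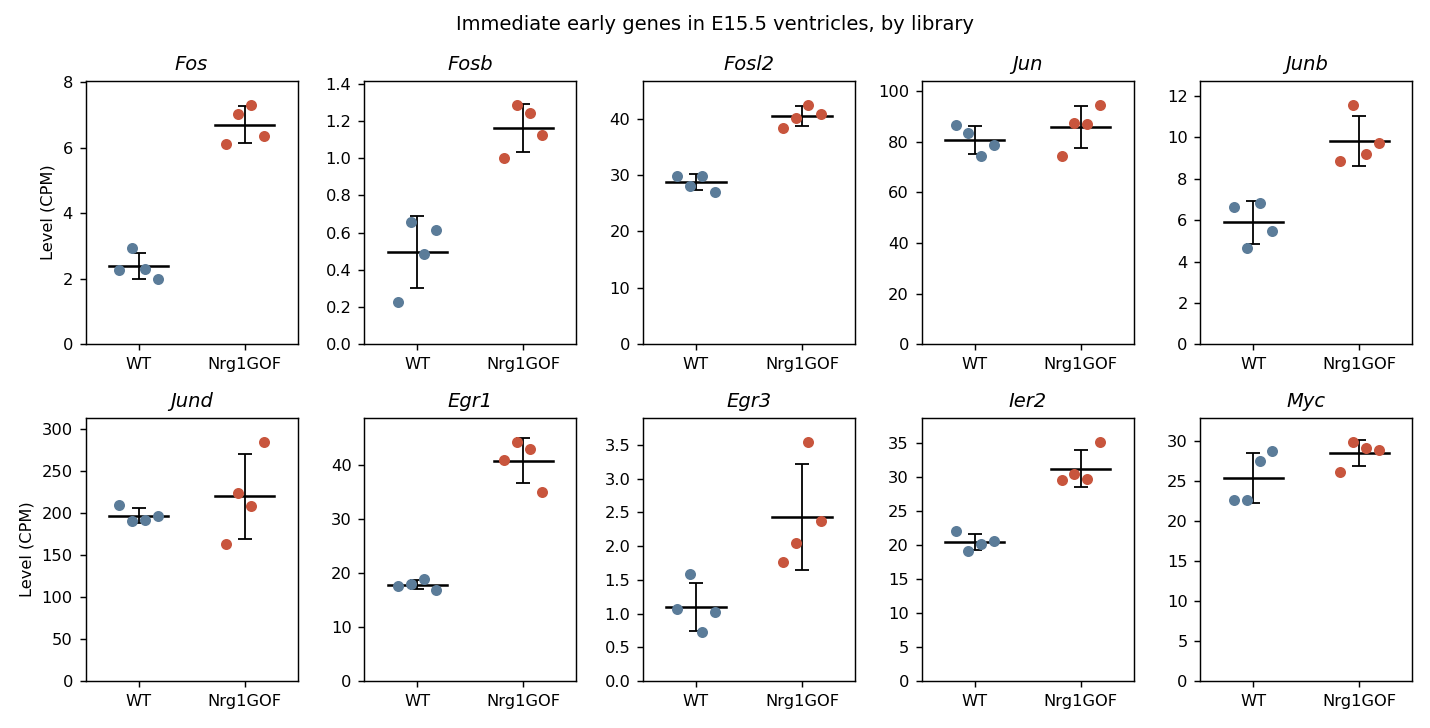
Level of each gene (CPM on the TMM-scaled library size, axis from 0) in the 4 WT and 4 *Nrg1GOF* libraries, with points for libraries, the long bar for the group mean and error bars for 1 SD. The groups are separate for *Fos*, *Fosb*, *Fosl2*, *Junb*, *Egr1*, *Egr3* and *Ier2* and overlap for *Jun*, *Jund* and *Myc*.

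The FOS family was examined first. *Fos* (ENSMUSG00000021250, GRCm38 chromosome 12, 85473890 to 85477273) encodes the prototype partner of JUN in AP-1. In library order, *Nrg1GOF* hearts had 6.13, 7.05, 7.31 and 6.38 CPM and WT hearts 2.25, 2.95, 2.31 and 2.01 CPM. The lowest *Nrg1GOF* library was about 2 times the highest WT library, so the groups were far apart. Means of 6.72 ± 0.557 and 2.38 ± 0.40 CPM (SD, n = 4 each) corresponded to 1.51 on the log2 scale (SE 0.155, adjusted p = 0.000126), the highest fold change of the 10.

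*Fosb* (chromosome 7, 19302696 to 19310051), whose product also pairs with JUN proteins, was the scarcest member. It was at 0.998, 1.29, 1.24 and 1.13 CPM in *Nrg1GOF* and at 0.229, 0.655, 0.485 and 0.615 CPM in WT, which rest on 9 to 29 and 6 to 15 counts per library. The groups did not overlap, but WT library 1 stood at less than 50% of each other WT library. The log2 fold change was 1.24 (SE 0.325, adjusted p = 0.0173). The call was lost without *Nrg1GOF* library 2 (log2 fold change 1.19, adjusted p = 0.0573) and when only WT libraries 1 and 2 served as controls (1.45, adjusted p = 0.0641), and held with WT libraries 3 and 4 (1.08, adjusted p = 0.0464). After thinning to the smallest total *Fosb* was too low to test.

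*Fosl2* (chromosome 5, 32135801 to 32157842) encodes FRA-2, a FOS family protein without the strong activation domain of FOS. Its level was 38.3, 40.1, 42.4 and 40.9 CPM in *Nrg1GOF* and 29.9, 28.04, 29.9 and 27.003 CPM in WT. Replicates were tight, with a coefficient of variation of 4.28% and 4.98%. A rise from 28.7 ± 1.43 to 40.4 ± 1.73 CPM (SD, n = 4 each) amounted to 0.49 on the log2 scale (SE 0.06, adjusted p = 0.000277), the lowest of the 7 called genes.

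The JUN family showed a single called gene. *Junb* (chromosome 8, 84974484 to 84978718) encodes a JUN protein that can restrain JUN. It was at 8.85, 11.6, 9.19 and 9.75 CPM in *Nrg1GOF* and 6.65, 4.64, 6.83 and 5.49 CPM in WT. All *Nrg1GOF* libraries were above the WT libraries. Means of 9.84 ± 1.21 and 5.90 ± 1.03 CPM (SD, n = 4 each) were separated by 0.73 on the log2 scale (SE 0.149, adjusted p = 0.00519). *Junb* shares 351 bases with *Prdx2* on the opposite strand. *Prdx2* was lower in *Nrg1GOF* (log2 fold change -0.26, adjusted p = 0.0141). The library kit was directional, but no source used here gives the strand setting of the counting. How reads of the shared stretch were assigned is therefore not known.

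*Jun* (chromosome 4, 95049034 to 95052222), the central AP-1 subunit, was at 74.3, 87.2, 86.9 and 94.5 CPM in *Nrg1GOF* and 86.7, 83.4, 74.2 and 78.5 CPM in WT. The groups overlapped, with *Nrg1GOF* libraries 2 to 4 above all WT libraries and *Nrg1GOF* library 1 next to the lowest of them. The log2 fold change was 0.08 (SE 0.08, adjusted p = 0.480), with a 95% interval from -0.09 to 0.26, which corresponds to 0.937-fold to 1.20-fold. It was 0.15 without *Nrg1GOF* library 1 (adjusted p = 0.156), 0.05 without *Nrg1GOF* library 4 (adjusted p = 0.717) and 0.04 without WT library 3 (adjusted p = 0.769). *Jun* overlaps the antisense gene *Junos*.

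*Jund* (chromosome 8, 70698949 to 70700616) encodes the JUN protein that is expressed most steadily across tissues. Its level was 162, 224, 208 and 285 CPM in *Nrg1GOF* and 210, 190, 191 and 196 CPM in WT. The WT libraries were close together, whereas *Nrg1GOF* library 1 was below all of them and *Nrg1GOF* libraries 2 and 4 above. Means of 220 ± 50.5 and 197 ± 9.06 CPM (SD, n = 4 each) differed by 0.15 on the log2 scale (SE 0.138, adjusted p = 0.451), with a 95% interval from -0.15 to 0.46. The upper bound corresponds to 1.38-fold. The value depended on single libraries, at 0.27 without *Nrg1GOF* library 1 (adjusted p = 0.088) and 0.018 without *Nrg1GOF* library 4 (adjusted p = 0.921), and was called in neither case. *Jund* overlaps the antisense gene *Gm11175*, which was at 2.96 CPM in WT.

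The EGR family rose in both members. *Egr1* (chromosome 18, 34859823 to 34864984), a zinc finger activator induced by ERK through SRF, was at 40.98, 44.4, 43.02 and 35.002 CPM in *Nrg1GOF* and 17.5, 18.1, 18.9 and 16.8 CPM in WT. Within each group the libraries were close, and the gap between the groups was wide. The means of 40.8 ± 4.14 and 17.8 ± 0.879 CPM (SD, n = 4 each) gave a log2 fold change of 1.20 (SE 0.08) and the smallest adjusted p of the 10 genes (1.27e-05).

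*Egr3* (chromosome 14, 70077203 to 70082614), a related factor often induced after *Egr1*, was at 1.77, 2.05, 3.55 and 2.38 CPM in *Nrg1GOF* and 1.07, 1.58, 0.728 and 1.02 CPM in WT, from 18 to 83 counts per library. The groups did not overlap, although the highest WT value came close to the lowest *Nrg1GOF* value. The log2 fold change was 1.16 (SE 0.305, adjusted p = 0.0176). This call was lost when all libraries were thinned to the smallest total (0.86, adjusted p = 0.115), when WT libraries 1 and 2, and 3 and 4, were each summed (1.19, adjusted p = 0.0636) and with WT libraries 1 and 2 as the only controls (0.89, adjusted p = 0.124), and held with WT libraries 3 and 4 (1.48, adjusted p = 0.0188).

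*Ier2* (chromosome 8, 84661331 to 84662852), a small nuclear protein gene without introns, was at 29.5, 30.4, 29.6 and 35.1 CPM in *Nrg1GOF* and 21.97, 19.04, 20.1 and 20.5 CPM in WT. The groups were separate, with *Nrg1GOF* library 4 on top. The rise was from 20.4 ± 1.22 to 31.2 ± 2.67 CPM (SD, n = 4 each), or 0.60 on the log2 scale (SE 0.08, adjusted p = 0.000369).

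*Myc* (chromosome 15, 61985391 to 61990374), which drives growth and ribosome synthesis, was at 26.1, 29.95, 29.2 and 28.9 CPM in *Nrg1GOF* and 22.7, 22.7, 27.5 and 28.7 CPM in WT. WT libraries 1 and 2 lay below WT libraries 3 and 4, and the latter fell within the *Nrg1GOF* range. Over all 8 libraries the log2 fold change was 0.17 (SE 0.09, adjusted p = 0.218), with a 95% interval from -0.04 to 0.37. With WT libraries 1 and 2 as controls it was 0.33 and called (adjusted p = 0.0279), while WT libraries 3 and 4 gave 0.03 (adjusted p = 0.831).

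**Figure D2:**
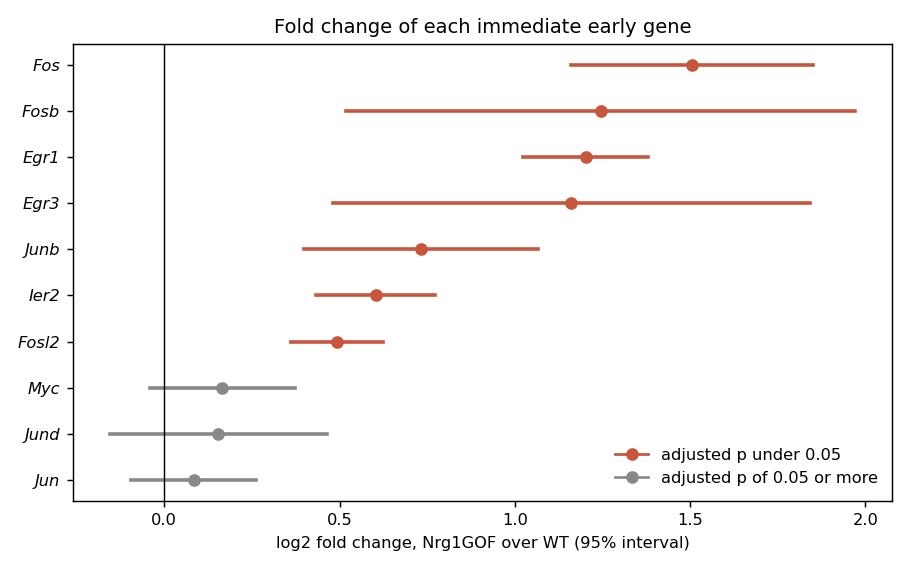
Log2 fold change of *Nrg1GOF* over WT for each gene with its 95% interval, red for genes called at an adjusted p under 0.05 and grey for the others. The intervals of *Myc*, *Jund* and *Jun* include 0, and those of the low genes *Fosb* and *Egr3* are the widest.

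Levels between genes were compared per kilobase of exon (RPKM, on the union of annotated exons). In WT the order was *Jund* (118 ± 5.43 RPKM), *Jun* (25.3 ± 1.72), *Ier2* (13.4 ± 0.80), *Myc* (9.35 ± 1.17), *Egr1* (3.98 ± 0.196), *Fosl2* (2.97 ± 0.148), *Junb* (2.57 ± 0.449), *Fos* (1.01 ± 0.17), *Egr3* (0.25 ± 0.081) and *Fosb* (0.079 ± 0.031), each as SD with n = 4. The neighbours *Fosl2* and *Junb* did not differ beyond their spread. The order in *Nrg1GOF* was the same except that *Junb* (4.28 ± 0.527 RPKM) and *Fosl2* (4.18 ± 0.179 RPKM) changed places, again within their spread. *Egr1* came near *Myc* there, with levels of 7.81 to 9.90 RPKM against 9.62 to 11.02 RPKM.

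**Figure D3:**
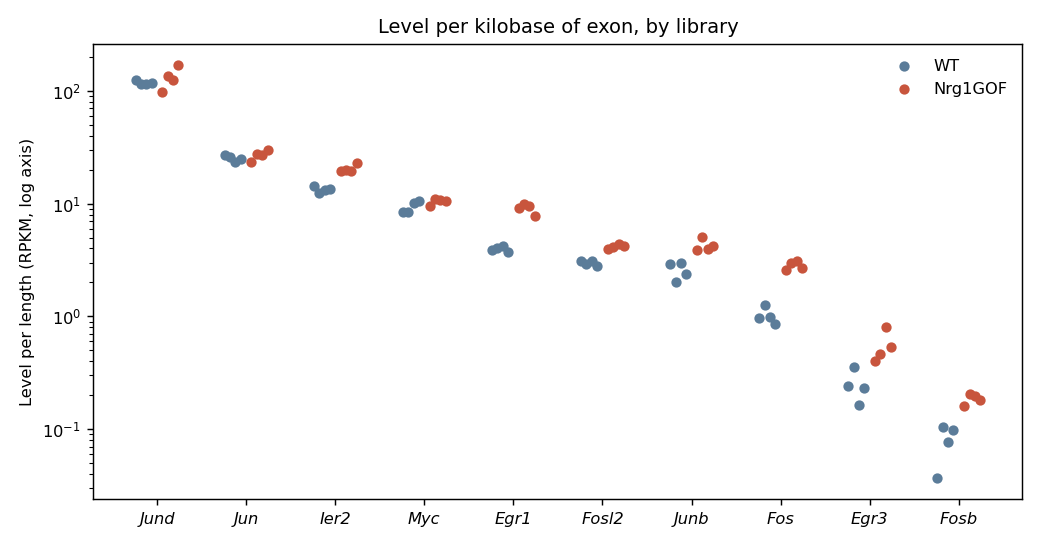
Level per kilobase of exon (RPKM, log axis) of each gene in the 4 WT and 4 *Nrg1GOF* libraries, ordered by the WT mean. *Jund* and *Jun* are the most abundant and overlap between the groups, and the separated genes lie lower on the axis.

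On this per-length scale JUN family transcripts exceeded FOS family transcripts in every library. The 3 FOS genes summed to 4.08, 4.25, 4.15 and 3.74 RPKM in WT and to 6.72, 7.35, 7.69 and 7.11 RPKM in *Nrg1GOF*. The 3 JUN genes summed to 141 to 156 RPKM in WT and 125 to 205 RPKM in *Nrg1GOF*. The FOS share of the 6 genes was thus 2.71% ± 0.20 in WT and 4.35% ± 0.755 in *Nrg1GOF* (SD, n = 4 each), with no overlap (2.52% to 2.91% against 3.36% to 5.12%). *Fos* itself made up 24.8% ± 3.09 of the FOS sum in WT and 39.5% ± 1.28 in *Nrg1GOF*. These are transcript shares, which do not give the make-up of AP-1 protein.

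Within the groups some of the genes varied together and others did not. For each gene the deviation of each library from its group mean (log2 CPM) was correlated with the mean standardised deviation of the other 9 over the 8 libraries. Pearson's r ran from -0.17 for *Egr1* to 0.63 for *Jund*, with 0.61 for *Jun* and 0.52 for *Fosl2* and at most 0.22 for the other 7, given as a description. *Jun* and *Jund* (r = 0.86), and *Jund* and *Ier2* (r = 0.79), were the closest pairs, and *Egr1* and *Ier2* the most opposed (r = -0.76). *Nrg1GOF* library 1 was the lowest of its group in 9 of the 10 genes, the exception being *Egr1*, and its mean standardised deviation was -0.88, against -0.18 to 0.32 in the other libraries.

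**Figure D4:**
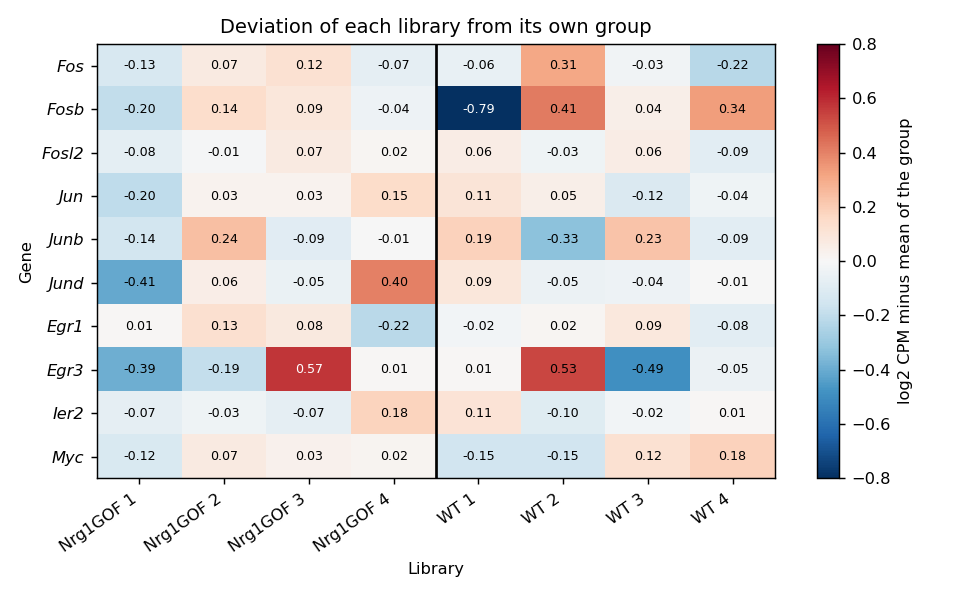
Deviation of each library from the mean of its own group (log2 CPM, colour scale from -0.8 to 0.8) for the 10 genes, with *Nrg1GOF* left and WT right of the line. *Jund* ranges from -0.41 in *Nrg1GOF* library 1 to 0.40 in *Nrg1GOF* library 4, *Egr3* varies in both groups and *Fosb* mainly in WT.

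The spread of *Jund* in *Nrg1GOF* was large for its level. Its SD over the 4 libraries (0.33 on the log2 scale) exceeded that of 97.4% of the 1000 genes nearest to it in average level, and its SD in WT (0.07) that of 50%. Among the 10 genes, *Jun*, *Jund* and *Ier2*, and the longest transcript of *Junb*, have a single exon, with a GC content of 55.5% (*Jun*), 67.1% (*Jund*), 60.9% (*Ier2*) and 62.6% (*Junb*), and *Egr1* (57.3%) and *Fosb* (56.0%) also lie above 55.5%. The 2840 tested protein-coding genes with a GC content of at least 55.5% had a median deviation of -0.12 in *Nrg1GOF* library 1 and 0.07 in *Nrg1GOF* library 4. The members at or above that content did not share 1 pattern. *Jund* was at -0.41 and 0.40, *Jun* at -0.20 and 0.15 and *Ier2* at -0.07 and 0.18 in these libraries. *Egr1* was at 0.01 and -0.22, *Junb* at -0.14 and -0.01 and *Fosb* at -0.20 and -0.04. The part of GC content in the spread was not tested. With an offset for GC content and length, the log2 fold change became -0.01 for both *Jun* (adjusted p = 0.914) and *Jund* (adjusted p = 0.935), and the 7 called genes were called as before.

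The genes whose within-group deviations were most like the mean of the 10 were *Sppl3* (r = 0.98), *Trim62*, *Zfpm1*, *Rhog*, *Tesk1*, *Ly6e*, *Gm45837*, *Aurka*, *Wdr34* and *Siva1* (r = 0.93), out of 10311 candidates over 8 libraries. None is on the list of other immediate early genes. The closest gene of that list was *Klf2* (r = 0.90, place 21).

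A list of 35 other immediate early genes was read in the same comparison, of which 32 were tested. Of these, 16 rose and 1 fell (53.1% called, against 28.7% of all tested genes, 15.9% higher and 12.8% lower), with a median log2 fold change of 0.43. The matricellular genes *Ccn2* and *Ccn1* and the pleckstrin-domain gene *Phlda1* rose most. *Ccn2*, also a target of YAP and TGF-beta, was at 255, 267, 300.2 and 349 CPM in *Nrg1GOF* and 89.8, 89.6, 91.2 and 90.6 CPM in WT. The WT libraries were almost equal and far below all *Nrg1GOF* libraries, and the difference was 1.69 on the log2 scale (SE 0.09, adjusted p = 3.85e-06). *Phlda1* had a log2 fold change of 1.63 (SE 0.09) and *Ccn1* of 0.95 (SE 0.06).

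Among transcription factors of the list, *Egr2* rose from 1.00 ± 0.168 to 1.73 ± 0.175 CPM (SD, n = 4 each, log2 fold change 0.78, adjusted p = 0.0226), so that all 3 tested EGR genes were higher. *Nr4a1* and *Nr4a3*, orphan nuclear receptors, rose by 0.52 and 0.73 on the log2 scale, whereas *Nr4a2* was at -0.10 (adjusted p = 0.716). *Atf3*, a stress-responsive factor, was at 0.11 (adjusted p = 0.529). *Klf2*, *Klf4* and *Klf6* were at 0.15, 0.10 and 0.13 and not called, and *Klf10* rose by 0.26. The gene that fell was *Gadd45b*, a stress sensor, with -0.33 (adjusted p = 0.0282). This call was lost without *Nrg1GOF* library 3 and without WT library 1, 2 or 3. It was also lost with WT libraries 1 and 2, or 3 and 4, as the only controls, with these pairs summed and after thinning to the smallest total. *Fosl1*, the remaining FOS gene, *Egr4* and *Ptgs2* were too low to test.

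**Figure D5:**
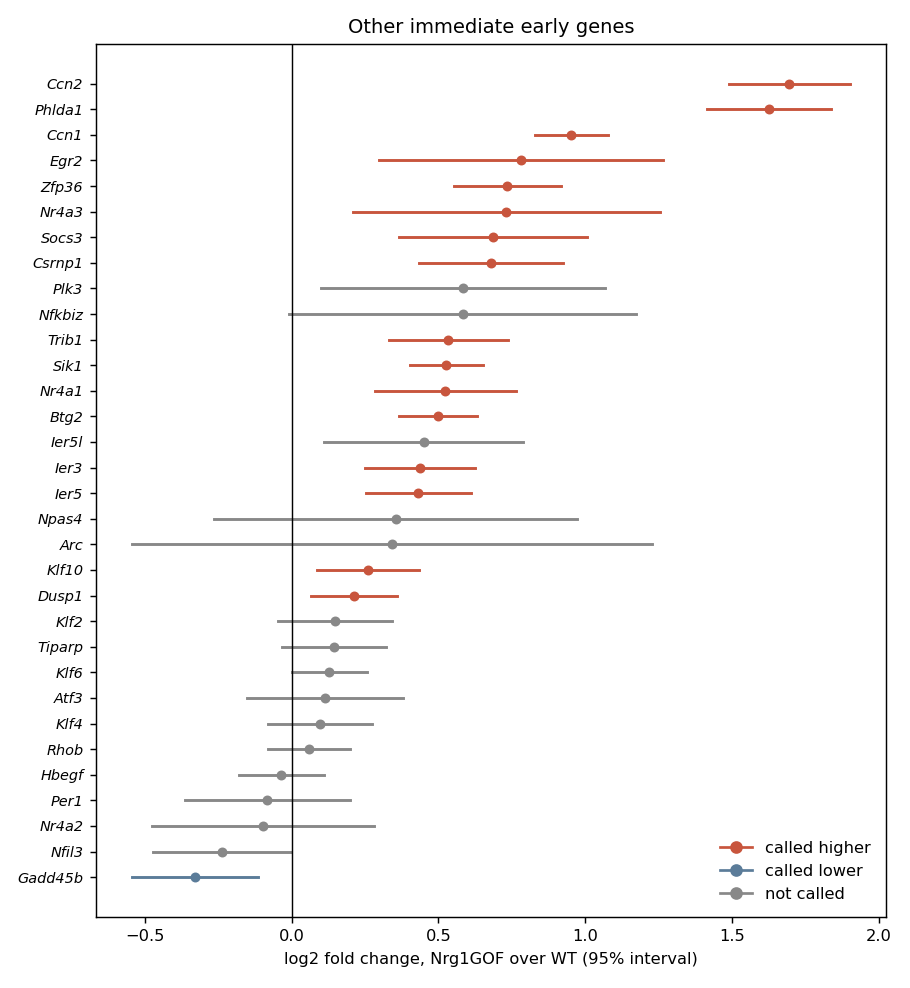
Log2 fold change of *Nrg1GOF* over WT with its 95% interval for the 32 other immediate early genes tested, red for called higher, blue for called lower and grey for not called. *Ccn2* and *Phlda1* lie highest, and *Gadd45b* is the single gene called lower.

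Negative regulators of the early response were mixed. *Nab2*, a corepressor that binds EGR proteins and is itself induced by them, was at 45.4, 47.0, 45.7 and 44.1 CPM in *Nrg1GOF* and 26.03, 28.8, 25.7 and 25.1 CPM in WT. It rose by 0.79 on the log2 scale (SE 0.06, adjusted p = 2.25e-05) with tight groups, while its relative *Nab1* was at -0.02 (adjusted p = 0.874). *Zfp36*, which encodes a protein that destabilises AU-rich messages such as that of *Fos*, rose by 0.73 (SE 0.08, adjusted p = 0.00019). *Khsrp* and *Hnrnpd*, other AU-rich element binding proteins, had log2 fold changes of -0.49 and -0.19 and were called lower. In all, 2 of the 12 genes of this list rose and 2 fell (33.3% called, against 28.7% of all tested genes, median -0.05).

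The kinases and promoter-bound factors upstream showed no common direction. Of 28 genes, 4 rose and 4 fell (28.6% called, near the 28.7% of all tested genes), with a median log2 fold change of -0.0006. *Rps6ka2* (a RSK kinase, 0.43), *Elk3* (an ETS-domain partner of SRF, 0.35) and *Rps6ka4* (an MSK kinase, 0.33) were among those that rose. *Rps6ka5* (the other MSK kinase, -0.56), *Srf* (-0.22) and *Mapk8* (JNK1, -0.21) were among those that fell. *Srf* went from 225 ± 6.81 to 194 ± 15.9 CPM (SD, n = 4 for both, adjusted p = 0.0306). *Mapk3*, which encodes an ERK kinase, was at 0.14 and not called. Transcripts do not report kinase activity.

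Partners of AP-1 leaned upwards. Of 13 tested bZIP genes, 6 rose and none fell (46.2% called, against 28.7%), with a median of 0.40 against -0.01 over all tested genes. They included *Maf* (0.93, SE 0.129), *Maff* (0.65), *Mafk* (0.44), *Atf5* (0.40) and *Atf4* (0.27). *Maf* is also expressed in macrophages.

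Of 12 tested genes of the MYC network, 1 rose and 2 fell (25% called, near the 28.7% of all tested genes). *Mycn*, the MYC family gene that supports growth of embryonic cardiomyocytes, was at 24.1, 24.9, 24.6 and 33.3 CPM in *Nrg1GOF* and 41.6, 39.0, 40.9 and 40.9 CPM in WT. *Nrg1GOF* library 4 stood above the other *Nrg1GOF* libraries but below all WT libraries, and *Mycn* fell by 0.62 on the log2 scale (SE 0.10, adjusted p = 0.00111). *Mxi1*, a MAX partner that opposes MYC, fell by 0.21, and *Mlx* rose by 0.23. The other 9 were not called. Of 20 MYC target genes, 4 rose and 1 fell (25% called), with a median of -0.02. *Ccnd2* (a G1 cyclin, 0.67), *Srm* and *Odc1* (polyamine synthesis, 0.43 and 0.42) and *Ldha* (0.25) rose and the mitochondrial chaperone gene *Hspd1* fell (-0.30). The nucleolar genes *Ncl*, *Npm1* and *Fbl* were at -0.04, 0.01 and -0.06 and not called.

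Several marker sets differed with the genotype, beside the rise of the immediate early genes. Over all tested genes 15.9% were called higher and 12.8% lower, against which the counts of 6 markers each can be read. Defining markers of ventricular cardiomyocytes were abundant in both groups, with *Myh7* at 17606 CPM and *Myl2* at 4481 CPM in WT. The 6 ventricular markers summed to 38980 to 41360 CPM in WT and 29540 to 37310 CPM in *Nrg1GOF*, and 4 of them were lower. All 6 fibroblast and epicardium markers were higher, with sums of 2096 to 2819 CPM in WT and 4103 to 4988 CPM in *Nrg1GOF*. All 6 macrophage markers were higher as well, with sums of 39.3 to 48.2 CPM and 85.2 to 98.8 CPM. Of the atrial markers 3 of 6 were higher (1001 to 1120 CPM in WT, 1601 to 1774 CPM in *Nrg1GOF*), and of the endothelial and endocardial markers 3 of 6 (1079 to 1104 CPM and 1137 to 1247 CPM). Mural cell markers (2 higher, 2 lower) and red blood cell markers (none called) overlapped in their sums. No listed marker was at 0 in all libraries.

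With the mean of the atrial or of the endothelial markers as a covariate, 3 of the 10 genes stayed called in each fit. Over all tested genes 4.83% and 4.63% were called in these fits. With the fibroblast or the macrophage markers none of the 10 did (edgeR quasi-likelihood test), and 3 and 2 of them had an unadjusted p under 0.05. Hardly any gene was called in the fibroblast and macrophage fits (0.295% and 0.0128% of all tested genes), so the lost calls are not particular to the 10. In those fits *Fos* was at 0.77 (adjusted p = 0.595) and 1.12 (0.484) on the log2 scale, and *Egr1* at 1.03 (0.197) and 0.88 (0.291). *Fosb* was at 1.97 and 2.18 and *Ier2* at 0.67 and 0.72, above their reported values. *Fosl2* was at 0.34 and 0.54, *Junb* at 0.95 and 0.31 and *Egr3* at -0.78 and 2.16. The sums of these 4 marker sets did not overlap between the genotypes, so marker level and genotype cannot be told apart. The part of other cell types in the rise of the immediate early genes was not tested. Chaperone genes, some of which respond to heat and tissue handling, were read as well. Of 10, *Hspa1b* (0.71) and *Hspa5* (0.51) rose and the other 8 were not called (median 0.05). The 20% called, all higher, compare with 15.9% of all tested genes called higher and 28.7% called in either direction. *Hspa1b* shares nearly all of its sequence with *Hspa1a* (0.61, not called), so its reads are uncertain, and *Dnajb1* and *Hsph1* were at -0.10 and 0.14 and not called.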

How the data were processed

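Gene expression was measured by RNA-seq of poly(A) RNA from 4 *Nrg1GOF* and 4 WT samples of embryonic ventricle. The deposited values (1 ventricle sample per library, directional library kit) are RSEM expected counts per gene (RSEM 1.3.1 and cutadapt per the labels), on GRCm38 with Ensembl release 91 as the table is named, without scaling for depth or length. The aligner and strand setting are not given in the sources used here. Symbols were matched for 53274 of 53465 identifiers, and coordinates, exon lengths and GC content came from GENCODE M21.

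Expected counts were rounded and filtered with filterByExpr, scaled by TMM and compared by the two-sided quasi-likelihood F-test of edgeR 4.0.16 (R 4.3.3) over 15580 genes, with Benjamini-Hochberg adjustment. SE was taken as the size of the log2 fold change over the root of F, and 95% intervals use the degrees of freedom of that test. Log2 CPM used a prior count of 2. Replicates are separate samples in the labels, with no statement on litters, so p-values measure the spread between these samples. A level of 3 counts stands for 0.115 to 0.375 CPM, which covers counting error only, since PCR reads are not independent molecules.

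The members and gene lists were chosen with earlier results of these data known. Named genes were the members, *Nrg1*, tested genes of the other immediate early list, the called genes of the other lists with the highest and lowest fold changes, and the 10 genes most like the members. Other genes of the lists and markers were named after their values were seen. Alternatives were DESeq2 1.42.0, limma-voom (limma 3.58.1), other scalings, filters and thresholds, marker covariates, thinning, summed or single WT pairs, leaving out each library and the replicate number as a block. Fibroblast and macrophage covariates and the GC offset were added after the data were seen. The fitting was tested on simulated data. Some genes of the lists are not reported here by name.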

Additional observations from a re-analysis of the deposited data

Results flagged for a closer look

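The level of *Ier2* in *Nrg1GOF* library 4 (35.1 CPM) stood apart from the other 3 libraries of its group (29.5 to 30.4 CPM), with a gap of 0.849 of the range, above the critical value of Dixon's test at the 95% level. This was the only such value among the 20 groups of 4 screened, where chance gives about 1 in 20. Without that library *Ier2* kept its direction and its call.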

How the results depend on the processing

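Among 362 results of the alternatives, 315 had the reported direction and side of the threshold or, for counts, stayed within 1.5 times the reported count. Leaving out each library in turn gave 6 to 7 of the 10 genes called, 13 to 17 of the other immediate early genes and 3239 to 4261 genes in all. A threshold of 0.01 left 2535 genes, 5 of the 10 among them, and summing WT libraries 1 and 2, and 3 and 4, which stood apart from each other, left 2464 and ended the call of *Egr3*. The atrial covariate left 753 genes, 3 of the 10 and 6 of the other immediate early genes, and the endothelial covariate 722, 3 and 3. The fibroblast covariate left 46 genes and the macrophage covariate 2, with 0 of the 10 (3 and 2 at an unadjusted p under 0.05) and 0 of the others (9 in each) by the quasi-likelihood test of edgeR. Values turned in sign for *Jun* with the fibroblast covariate (-0.26) and the GC and length offset (-0.015), for *Jund* with that offset (-0.012) and for *Egr3* with the fibroblast covariate (-0.78). The cause was not tested.

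Replicate numbers are shared by the groups. Same-numbered libraries correlated at 0.0492 to 0.199 in their deviations (mean 0.111), against a mean of -0.0373 for libraries of different numbers. The reported fit did not take the numbers as pairs, and whether they mark pairs was not tested. With the replicate block 7 of the 10 genes, 14 of the other immediate early genes and 4524 genes in all were called. DESeq2 and limma-voom also called 7 of the 10. With library totals as scaling, the median log2 fold change shifted by 0.044 and the share of calls that were higher was 65.4% (55.4% as reported), and the GC and length offset gave 44%, with a median shift of -0.045. The stricter count filter dropped *Fosb*. With all libraries thinned to the smallest total, 5 of the 10 genes were called, *Fosb* was not tested and *Egr3* was not called (0.86, adjusted p = 0.115).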
